A study of Mus musculus with 34 samples.

Results

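The Hox genes of the 4 mammalian clusters were described in the RNA-seq libraries of mouse embryonic stem cells (mESCs) grown without leukemia inhibitory factor (LIF), with or without Royalactin, the major protein of honey bee royal jelly. The members were all table genes whose symbol is Hoxa, Hoxb, Hoxc or Hoxd followed by a number. This rule found 39 genes of the 23366 listed, of which 11 were Hoxa, 10 Hoxb, 9 Hoxc and 9 Hoxd. The rule used the names alone and no measured value.

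Hox genes encode homeodomain transcription factors that give cells their position along the head-to-tail axis of the embryo. Within a cluster the genes lie in the order in which they are used: low-numbered (anterior) genes act in the hindbrain and neck, and high-numbered (posterior) genes in the lumbar region, tail, limbs and genital tract. Members with the same number in different clusters are paralogues, copies of 1 ancestral gene. In pluripotent cells the clusters are a textbook case of genes held silent by Polycomb group proteins at CpG-rich promoters, and retinoic acid, Wnt signals and the Cdx factors switch them on as cells leave that state.

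The cells were J1 mESCs, a male line from a 129 strain embryo, and the labels name no engineered allele in any group. LIF is the cytokine that serum cultures of these cells need to stay undifferentiated. The serum/-LIF group (2 libraries) was kept in serum medium from which LIF was left out. The serum/-LIF + Royalactin group (2 libraries) had the same medium with Royalactin at 0.5 mg/ml. The labels give passage 40 for all 4 RNA-seq libraries, a number that differs from the passage named in the study's methods, and name no separate cultures, so the p-values measure only the spread between these libraries, which may be technical. In the names of the deposited columns the letters RA stand for Royalactin, not for retinoic acid, and the labels name no retinoic acid treatment.

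The libraries held 14737796 to 17597818 reads on genes, of which Rn45s, the ribosomal precursor RNA, took 9.08% to 46.6%. Without it, 7878527 and 11559820 reads remained in serum/-LIF, and 10538334 and 15999458 with Royalactin, so the second Royalactin library was the deepest. Values are normalized counts, reads divided by a size factor of the library, and 1 read was worth 1.34, 1.04, 1.01 and 0.688 normalized counts in serum/-LIF 1 and 2 and Royalactin 1 and 2. Libraries are always given in this order below. A gene at 0 could have been present at up to 3 reads, or 4.01, 3.11, 3.02 and 2.07 normalized counts, a limit that covers counting error only. All 10 pluripotency markers had reads in every library, and Pou5f1, which encodes Oct4, had 3736, 5224, 5110 and 10828 reads. Markers of the labelled cell type were thus present in both groups. As the samples were bulk cultures, fewer cells with a transcript and less transcript per cell cannot be told apart.

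Promoters of 4 members are printed here because these paralogues at the posterior ends of the clusters differed in level. Hoxd13 had the highest level of all members, Hoxa13 had no read although its promoter held even more CpG sites, and Hoxb13 and Hoxc13 are their paralogues in the other clusters. Each sequence is the 250 bases before the annotated start of transcription, read 5′ to 3′ on the gene's strand from the mm9 genome, with CpG sites in capitals. Hoxd13 lies at chr2:74506117-74506366 on the plus strand (31 CpG sites), Hoxa13 at chr6:52210875-52211124 on the minus strand (35), Hoxb13 at chr11:96055380-96055629 on the plus strand (11) and Hoxc13 at chr15:102751284-102751533 on the plus strand (15).
Hoxd13: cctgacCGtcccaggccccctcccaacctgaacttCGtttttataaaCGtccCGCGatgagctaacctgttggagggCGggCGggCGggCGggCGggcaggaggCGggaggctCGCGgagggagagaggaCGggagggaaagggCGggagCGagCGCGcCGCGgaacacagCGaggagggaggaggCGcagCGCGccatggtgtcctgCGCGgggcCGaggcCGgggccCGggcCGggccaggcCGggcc
Hoxa13: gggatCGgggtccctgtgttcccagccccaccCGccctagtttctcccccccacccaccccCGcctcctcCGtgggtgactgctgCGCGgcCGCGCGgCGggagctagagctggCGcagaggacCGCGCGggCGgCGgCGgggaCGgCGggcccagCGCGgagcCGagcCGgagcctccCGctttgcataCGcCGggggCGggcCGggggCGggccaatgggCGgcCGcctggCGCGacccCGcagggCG
Hoxb13: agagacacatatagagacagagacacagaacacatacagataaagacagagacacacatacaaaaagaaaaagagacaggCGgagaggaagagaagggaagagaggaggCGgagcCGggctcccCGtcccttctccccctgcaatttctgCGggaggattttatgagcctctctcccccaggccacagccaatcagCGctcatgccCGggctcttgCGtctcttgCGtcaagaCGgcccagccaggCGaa
Hoxc13: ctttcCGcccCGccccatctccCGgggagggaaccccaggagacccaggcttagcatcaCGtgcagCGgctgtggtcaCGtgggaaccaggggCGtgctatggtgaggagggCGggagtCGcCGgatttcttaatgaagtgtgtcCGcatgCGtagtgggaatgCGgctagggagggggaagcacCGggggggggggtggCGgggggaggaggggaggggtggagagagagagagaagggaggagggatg

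Over the 4 libraries together, 25 of the 39 members (64.1%) had a read, against 71.4% of all table genes, but few did so in any 1 library. The members with at least 1 read numbered 12, 12, 11 and 18, or 30.8%, 30.8%, 28.2% and 46.2% of the 39, while 62.5%, 59.3%, 61.2% and 64.9% of all table genes had a read in the same libraries. Only 4 members (10.3%), Hoxb3, Hoxb4 and Hoxb9 among them, were seen in all 4 libraries, against 53.3% of all table genes. A further 14 members (35.9%) had no read in any library, against 28.6% of all genes. The share seen in a single library was 25.6% of members (10 genes) and 7.01% of all genes. The plot of reads by member and library shows these scattered counts.

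**Figure D1:**
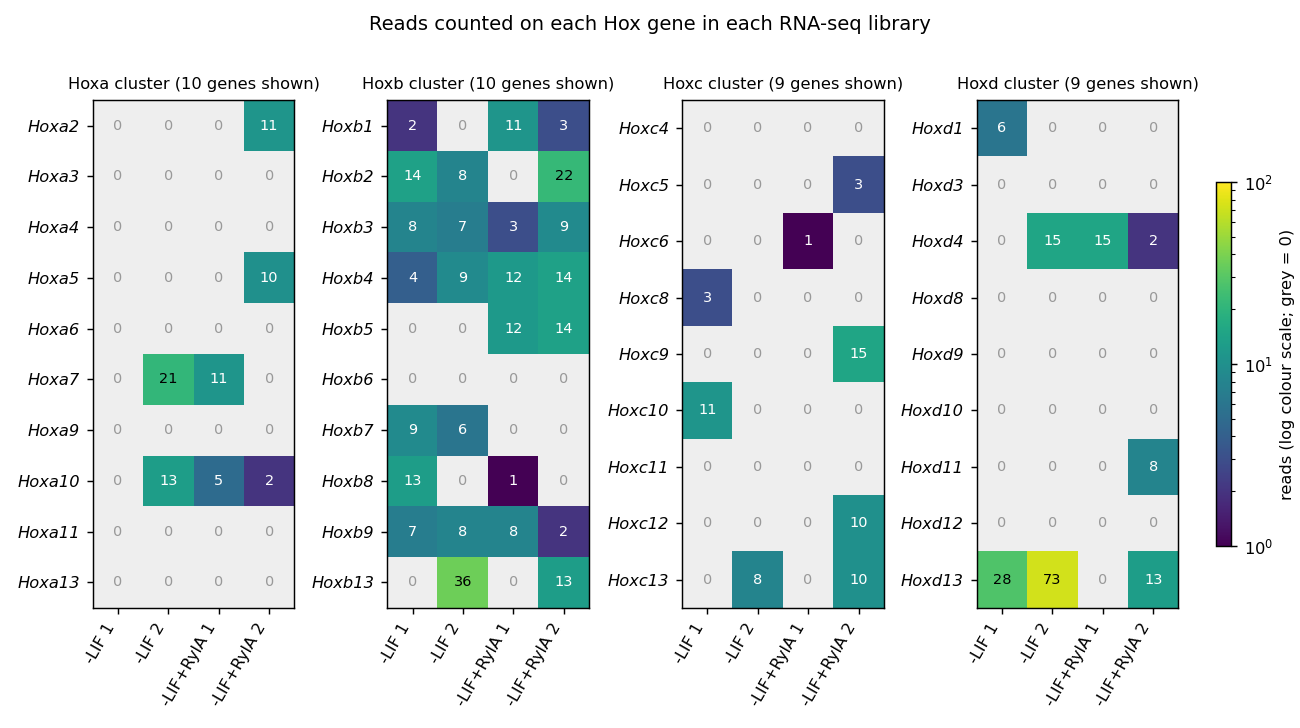
Reads counted on 38 of the 39 Hox genes (rows, by cluster and paralogue number) in the 4 libraries (columns; RylA stands for Royalactin), with the number printed in each cell and a log colour scale. Most cells are 0, and the highest number is 73, for Hoxd13 in serum/-LIF 2.

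All members together took 110, 225, 96 and 164 reads, 595 in all. As RPM, reads scaled to a library's reads without Rn45s, this was 13.96, 19.5, 9.11 and 10.3, both serum/-LIF libraries above both Royalactin libraries. Hoxd13, which patterns digits and the genital tubercle, held 114 of the reads (19.2%). The 5 members with most reads, Hoxd13, Hoxb13, Hoxb2 and Hoxb4 among them, held 49.1%, and the first 10 members 72.9%. Per kb of exon, the scale on which genes can be compared, the median member had a mean level of 0.917 normalized counts, and the median of the 21207 table genes with an exon length was 9.78. The members reached at most 12.3 normalized counts per kb, for Hoxd13, a level that 48.1% of all genes exceeded. A level of at least 10 per kb was met by 1 of 39 members (2.56%) and by 49.8% of all genes.

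**Figure D2:**
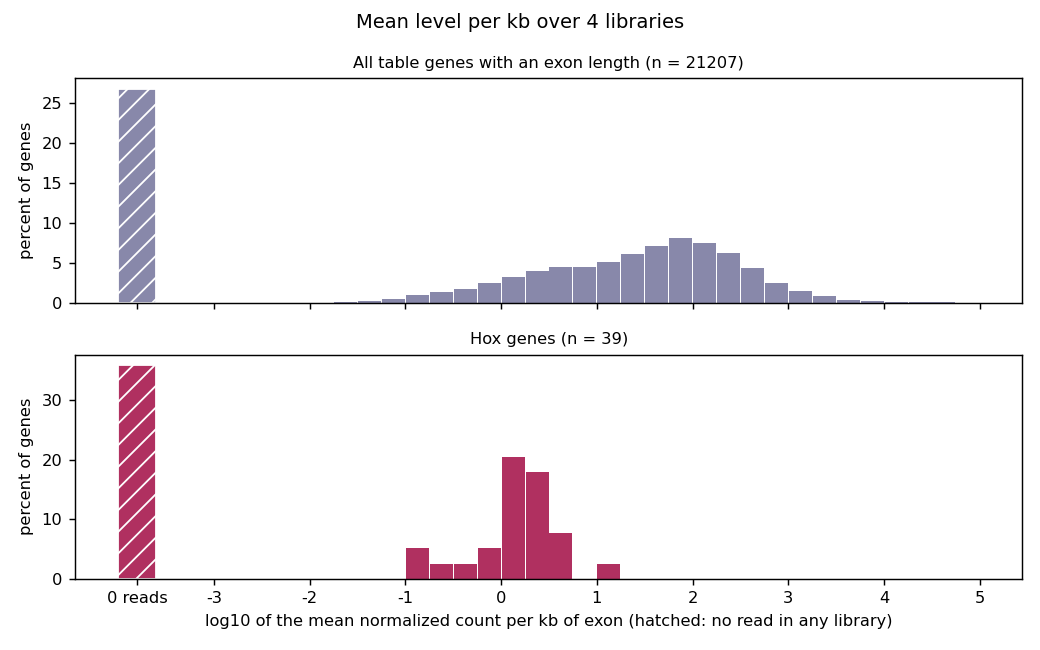
Percent of genes (vertical axis) by the mean normalized count per kb of exon over the 4 libraries (horizontal axis, log10), for all table genes with an exon length above and the 39 Hox genes below; hatched bars are genes with no read in any library. The Hox genes lie below most detected genes, with only Hoxd13 above 10 per kb.

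The 4 clusters differed in how many of their members were seen. In the Hoxb cluster, 9 of 10 members had a read in some library and 3 had reads in all 4, and the cluster held 42.9% of all Hox reads. In the Hoxa cluster this was 5 of 11 members, with 1 in all 4 libraries and 119 of the 595 reads. The Hoxc cluster had reads on 7 of 9 members but none in all 4 libraries, and 10.3% of the reads. The Hoxd cluster had reads on 4 of 9 members, none in all 4 libraries, and 26.9% of the reads. With a minimum of 3 reads in a library, the members detected in some library fell from 25 to 24. The genes of a cluster share a locus and are not replicates, and these differences between clusters are descriptions.

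Among the anterior members, paralogue groups 1 to 4, each of the 4 Hoxb genes had reads. Hoxb2, which acts in hindbrain segments and facial motor neurons, had 14, 8, 0 and 22 reads, with the lowest and the highest value both in the Royalactin group. Hoxb1, the gene of the fourth hindbrain segment, had 2, 0, 11 and 3 reads. Hoxb3 had 8, 7, 3 and 9 reads and Hoxb4, known for expanding blood stem cells, 4, 9, 12 and 14. Hoxb3 and Hoxb4, neighbours in the cluster, had reads in every library. Hoxb3os, an annotated gene that is not among the table genes, overlaps 49.4% of the exon bases of Hoxb2 and 37.9% of those of Hoxb3. Some reads of Hoxb2 and Hoxb3 could thus come from Hoxb3os. Hoxd4 had 0, 15, 15 and 2 reads, and 67.4% of its exon bases overlap those of Hoxd3, which had no counted read. The handling of reads in shared bases is not given, so members that share exon bases could be undercounted. Hoxd1 had 6 reads in serum/-LIF 1 alone and Hoxa2, the gene of the second pharyngeal arch, 11 reads in Royalactin 2 alone. Hoxa3, Hoxa4 and Hoxc4 had no read.

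The central members, groups 5 to 8, were seen in few libraries each. Hoxb5 had 0, 0, 12 and 14 reads, present in both Royalactin libraries and in neither serum/-LIF library. Hoxb7, on the other side of Hoxb6, had the opposite pattern, with 9, 6, 0 and 0 reads. Hoxb7 and Hoxb8 share exon bases (40.4% of those of Hoxb8), and Hoxb8 had 13, 0, 1 and 0 reads. Hoxa7, a trunk gene, had 0, 21, 11 and 0 reads, the high values being 1 in each group. Hoxa5, which acts in the lung and thorax, had 10 reads, all in Royalactin 2. Hoxc5, Hoxc6 and Hoxc8 had 1 to 3 reads in a single library each, and Hoxa6, Hoxb6 and Hoxd8 had none.

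The posterior members, groups 9 to 13, held the highest counts of the family. Hoxd13 had 28, 73, 0 and 13 reads, or 37.4, 75.6, 0 and 8.95 normalized counts. Both serum/-LIF libraries lay above both Royalactin libraries, and the groups did not overlap. Hoxb13, a gene of the tail and prostate, had 0, 36, 0 and 13 reads, with a high and an empty library in each group. Hoxc13, required for hair and nails, had 0, 8, 0 and 10 reads, and came from the same 2 libraries as Hoxb13. The fourth paralogue, Hoxa13, had no read. Group 13 as a whole thus held 181 reads, or 30.4% of all Hox reads. None of the exon bases of Hoxd13, Hoxb13 or Hoxa13 overlap another annotated gene, and none of the 75-base windows laid along them matched elsewhere in the genome with up to 2 mismatches.

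Of the other posterior genes, Hoxb9, which patterns the thoracic ribs, had 7, 8, 8 and 2 reads. Hoxa10, a gene of the lumbar spine and uterus, had 0, 13, 5 and 2. Hoxc9, which specifies thoracic motor neurons, had 15 reads and Hoxc12 had 10, all in Royalactin 2, where Hoxd11, a gene of the forearm, also had its only 8 reads. The lumbar gene Hoxc10 had its 11 reads in serum/-LIF 1. Hoxa9, Hoxa11, Hoxc11, Hoxd9, Hoxd10 and Hoxd12 had no read. The deepest library, Royalactin 2, was the only source of reads for 6 members.

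The scatter over libraries was compared with that of table genes of like read number. Of table genes with 6 to 10 reads in all, 62.0% had them in a single library, and all 4 Hox genes of that range did. With 11 to 20 reads, 3 of 8 Hox genes (37.5%) and 32.9% of all genes were seen in a single library. With 21 to 40 reads, 3 of 6 Hox genes and 15.6% of all genes had reads in all 4 libraries. With 41 to 120 reads, 1 of 4 Hox genes and 62.2% of all genes did so. This range is wide, with Hoxb2 (44 reads) and Hoxb13 (49) near its low end and Hoxd13 (114) near its high end. The 62.2% is thus not a close reference for each of them. Any 2 libraries shared 30.4% to 50.0% of the Hox genes seen in either, the replicates of 1 group (41.2% and 38.1%) lying inside the range of libraries from different groups. The same share over all table genes was 83.7% to 86.2%.

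Royalactin was compared with serum/-LIF to ask which Hox genes changed when the protein was added. A mean of at least 10 normalized counts over the 4 libraries, needed to enter the test, was reached by 4 members (10.3%) and by 55.6% of all table genes. Among these were Hoxd13, Hoxb13 and Hoxb2. Hoxb2, with a mean of 10.5, lay just inside this limit, and Hoxb4 (9.09) and Hoxa7 (8.20) just outside. In limma, fitted on log2(normalized count + 1) over 12993 genes with Benjamini-Hochberg adjustment, none of the 4 passed an adjusted p of 0.05, where 0.493% of all tested genes did, 0.331% higher (43 genes) and 0.162% lower with Royalactin (21 genes). An unadjusted limma p under 0.05 was found for 9.34% of tested genes. With at least 2-fold added, after the thresholds in the study's methods, which used another test and name no adjustment, 1 of the 4 passed, against 7.13% of tested genes, 3.52% higher and 3.61% lower with Royalactin.

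That gene was Hoxd13, with 56.5 ± 26.95 normalized counts in serum/-LIF and 4.47 ± 6.33 with Royalactin (SD, n = 2 each). Its log2 difference, Royalactin against serum/-LIF, was -4.10 with a standard error of 1.50 (limma adjusted p = 0.379). Over the alternative settings the adjusted p of Hoxd13 ran from 0.167 to 1.00. Without serum/-LIF 2 or without Royalactin 1, it no longer met the study's thresholds, and no other tested member met them. An exact permutation test of 2 against 2 libraries cannot go below p = 0.333 (two-sided).

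Hoxb2 and Hoxb13 differed by less than the spread between replicates. Hoxb2 had a log2 difference of -1.75 with a standard error of 1.98 (limma adjusted p = 0.838), between 13.5 ± 7.38 normalized counts and 7.57 ± 10.7. Hoxb13 had -0.97 with a standard error of 2.65 (limma adjusted p = 0.942). Both turned to a positive difference without Royalactin 1, to 0.25 for Hoxb2 and 0.69 for Hoxb13. The median log2 difference of the 4 tested members was -1.36, that of all 12993 tested genes -0.01. The value for the members depended on the filter. It was -0.46 over the 23 members with a mean of at least 1, and -0.12 over the 25 members with any read.

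Among the 25 members with any read, the 2 groups did not overlap for 6. Hoxb4 and Hoxb5 were higher with Royalactin in both libraries, and Hoxb3, Hoxb7, Hoxb9 and Hoxd13 were lower. Of all table genes with a read, 34.3% did not overlap between the groups, 18% higher and 16.3% lower, so non-overlap was not more frequent among the members. Few reads lay behind these cases. Against a floor of 3 reads in each empty library, Hoxb5 was at least 3.05-fold higher with Royalactin and Hoxb7 at least 3.59-fold lower. Neither entered the test. Seen only in serum/-LIF were 4 members (10.3%) and only with Royalactin 8 (20.5%), against 3.56% and 5.48% of all table genes. Of the 8, 6 had reads in Royalactin 2 alone, the deepest library, where 2.76% of all table genes were seen alone.

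Summed over all members, the level was 147 and 233 normalized counts in serum/-LIF and 96.6 and 113 with Royalactin, a log2 ratio of the means of -0.86. Hoxd13 made up much of this, since without it the sums were 110 and 157 against 96.6 and 104, a log2 ratio of -0.41. The Hoxd cluster summed to 45.5 and 91.1 in serum/-LIF and to 15.1 and 15.8 with Royalactin, a log2 ratio of -2.14 that was -0.10 without Hoxd13, when the groups overlapped (8.02 and 15.5 against 15.1 and 6.88). The Hoxb cluster had 76.2 and 76.6 against 47.3 and 53.0 (log2 ratio -0.61), and without Hoxb13 the log2 ratio was -0.34 and the groups overlapped (76.2 and 39.3 against 47.3 and 44.1). In the Hoxa cluster the sums overlapped, with 6.69 and 56.9 against 33.2 and 17.9, and in the Hoxc cluster too, with 18.7 and 8.28 against 1.01 and 26.2. By position, the log2 ratio was -0.16 for groups 1 to 4 (221 reads), -0.49 for groups 5 to 8 (104 reads) and -1.69 for groups 9 to 13 (270 reads). Paralogue groups 5 to 8 held 25, 27, 25 and 27 reads, so their difference rests on the size factors. For groups 9 to 13 without Hoxd13 the log2 ratio was -0.75. Serum/-LIF and Royalactin then overlapped, with 24.1 and 67.3 against 13.1 and 41.3 normalized counts.

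**Figure D3:**
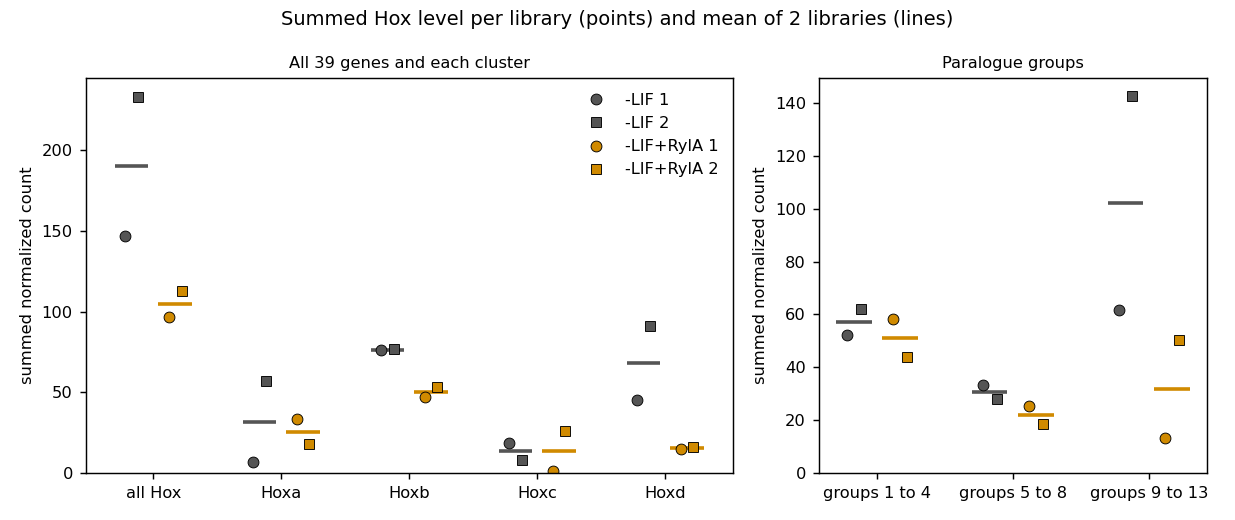
Summed normalized counts of the Hox genes (vertical axis, from 0) in each library (points; RylA stands for Royalactin) with the mean of the 2 libraries of each group (lines), for all members and each cluster on the left and for 3 ranges of paralogue groups on the right. On the left the groups separate for all members, Hoxb and Hoxd, and overlap for Hoxa and Hoxc. On the right they overlap for groups 1 to 4 and separate for groups 5 to 8 and 9 to 13. Paralogue groups 5 to 8 held 25, 27, 25 and 27 reads, so their separation rests on the size factors. Sums without a member are not drawn; the groups overlap for Hoxb without Hoxb13, and for Hoxd and groups 9 to 13 without Hoxd13.

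The genes around the clusters were often at higher levels than the genes inside them. The clusters span 105.5 kb on chromosome 6 (Hoxa), 173.9 kb on chromosome 11 (Hoxb), 115.7 kb on chromosome 15 (Hoxc) and 96.8 kb on chromosome 2 (Hoxd). Of 10 other table genes that lie inside these spans, 7 had no read, among them the microRNA genes Mir10a, Mir10b and Mir196b. Only Gm53, between Hoxb13 and Hoxb9, passed the filter, with 16, 24, 2 and 17 reads (log2 difference -1.96, limma adjusted p = 0.735). Hoxa11as, an antisense transcript that covers 38.6% of the exon bases of Hoxa11, had 8 reads in serum/-LIF 1, while Hoxa11 had none. Of the 24 flanking genes, the nearest 3 on each side, 16 passed the filter and 5 had no read. Skap1, beyond Hoxb, had a mean of 5.26 normalized counts. Means among the flanking genes reached 8845 normalized counts for Cbx5, which encodes a heterochromatin protein, beyond the Hoxc cluster, 3548 for its relative Cbx3 beyond Hoxa, and 1828 for the splicing factor gene Hnrnpa3 beyond Hoxd. Evx1 and Evx2, homeobox genes at the posterior ends of Hoxa and Hoxd, had 10 reads in Royalactin 1 and no read, respectively. None of the 16 tested neighbours passed the adjusted threshold in limma, and 3 (Calcoco1, Calcoco2 and Snx11, all higher with Royalactin) had an unadjusted p under 0.05. The largest differences among them were 1.44 for Calcoco1 (adjusted p = 0.367) and -0.48 for Mtx2 (adjusted p = 0.735).

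**Figure D4:**
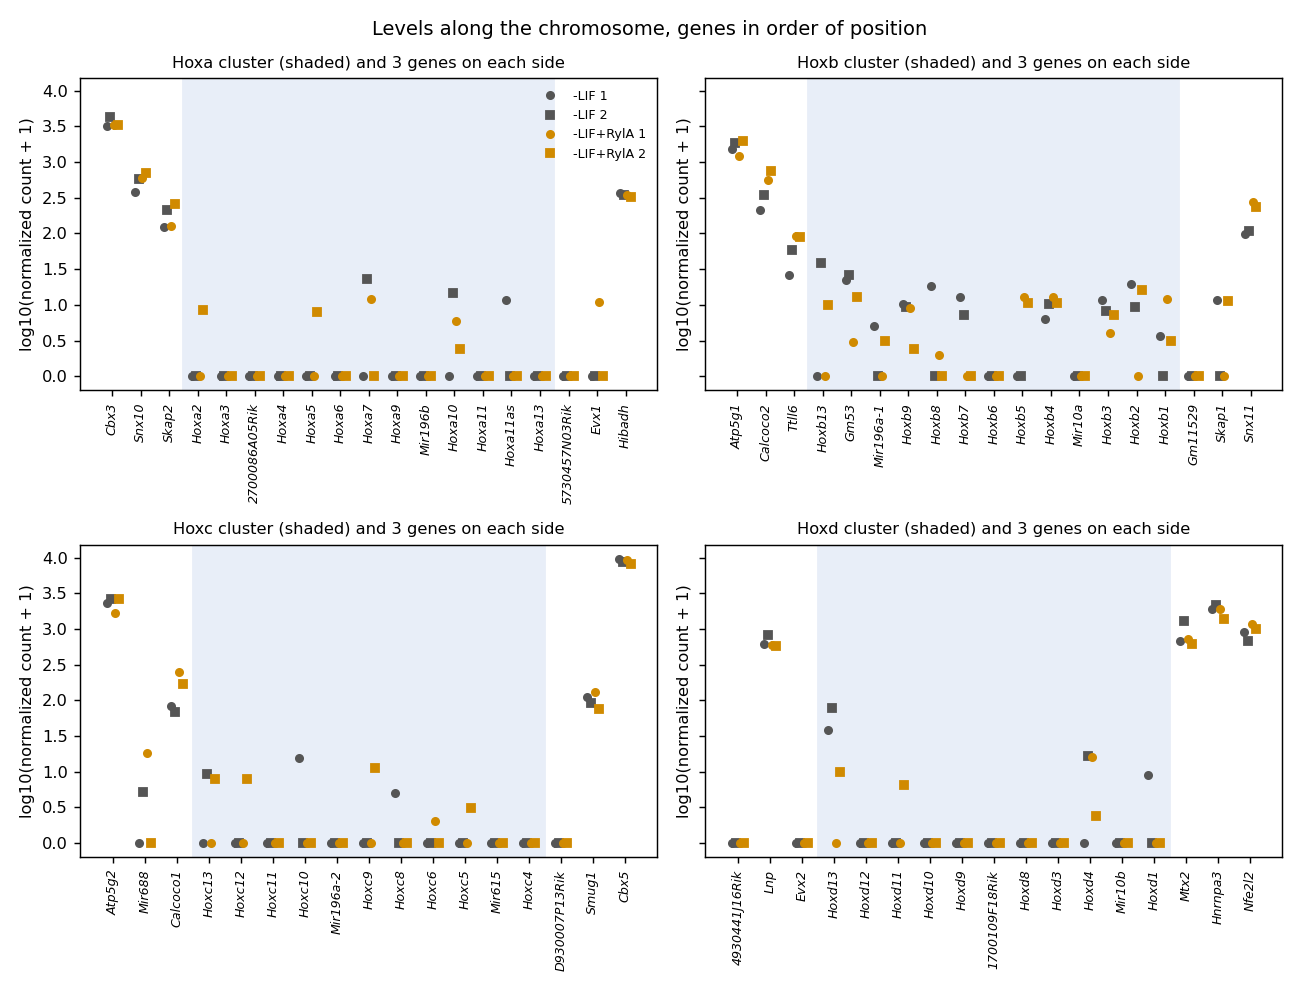
Levels of table genes in chromosome order (horizontal axis, not to scale, 1 Hox gene not shown) as log10(normalized count + 1) in each library (points; RylA stands for Royalactin), with the genes of each Hox cluster shaded and the nearest 3 table genes on each side. The flanking genes reach 8845 normalized counts in the mean, and no Hox gene exceeds 75.6 in any library.

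Promoter composition was a measure the choice of members did not use. The median number of CpG sites in the 250 bases before the start was 13 for the Hox genes, 10 for the 19582 coding genes of the table, 2 for coding genes without a read and 16 for those with a mean of at least 10. At least 10 CpG sites were found in 24 of 39 Hox promoters (61.5%), 51.3% of all coding genes, 7.29% of those without a read and 73.6% of those with a mean of at least 10. The Hox values thus lay between those of all coding genes and those of genes with a mean of at least 10. Levels at such promoters were lower in the Hox genes. Of the 24 Hox genes with at least 10 CpG sites, 8 (33.3%) had no read, against 3.55% of the 10039 coding genes with such promoters. A mean of at least 10 was reached by 3 of the 24 (12.5%) and by 87.1% of the 10039.

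The number of CpG sites did not separate the members without a read from the others. Those without a read had a median of 11.5 sites and those with a read 14. Hoxa4, with 41 sites the most CpG-rich of the family, and Hoxa13, printed above, had no read. Hoxd13, with 31 sites, was the highest. Hoxd4, with 3 sites, was seen in 3 libraries. The Hoxb cluster, with the most members detected, had the lowest median (9 sites), and the Hoxa cluster the highest (23).

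**Figure D5:**
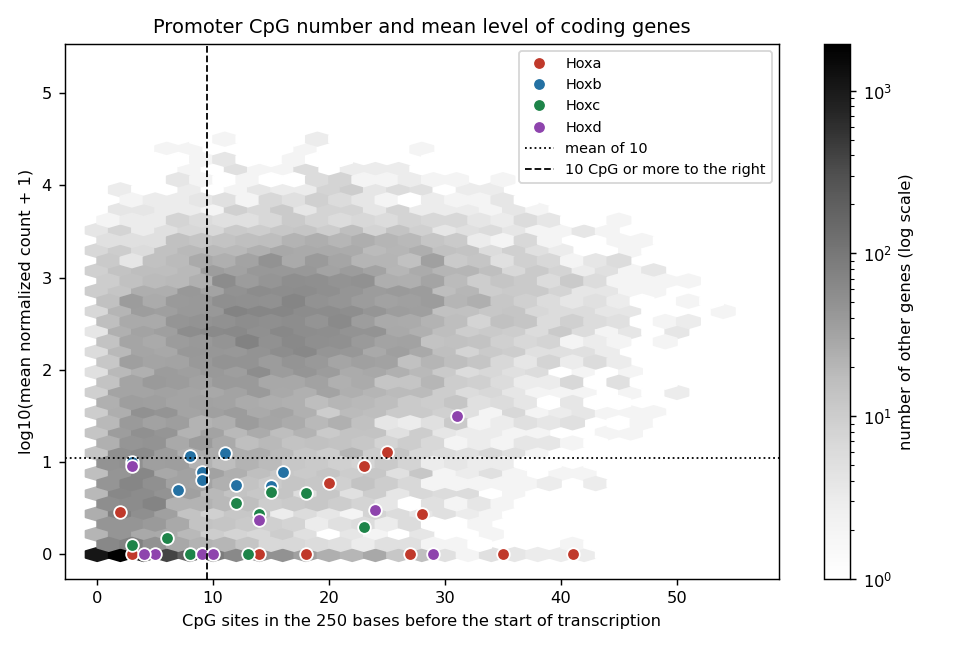
CpG sites in the 250 bases before the start of transcription (horizontal axis) against log10(mean normalized count + 1) over the 4 libraries (vertical axis) for coding genes (grey hexagons, number of genes on a log scale) and the Hox genes by cluster (coloured points). Most coding genes right of the dashed line at 10 sites lie above the dotted line at a mean of 10 (87.1%), and 3 of 24 Hox genes do.

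The proteins that act with or upstream of Hox genes were then examined. TALE proteins (Pbx, Meis and Pknox) bind DNA together with Hox proteins. All 9 had reads and all 9 were tested, and none passed the adjusted threshold in limma (1 had an unadjusted p under 0.05, as had 9.34% of all tested genes). The largest differences were 2.31 for Pbx4 (adjusted p = 0.644) and -1.22 for Meis3 (adjusted p = 0.726), and the median was -0.03. The 9 genes summed to 1741, 1500, 1668 and 1259 normalized counts, above the sum of all Hox genes in every library.

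The Cdx factors, activators of trunk Hox genes, were at low levels. Of the 6 Cdx and ParaHox genes, 3 had no read and only Cdx4 was tested. Cdx4 had 24.1 and 51.8 normalized counts in serum/-LIF and 0 in both Royalactin libraries, which is at least 14.9-fold lower with Royalactin against a floor of 3 reads in each library (limma adjusted p = 0.413). Cdx4 was lower with Royalactin, as was Hoxd13, but neither of these 2 genes passed the adjusted threshold in limma. Cdx1, which was not tested, had the opposite direction, with 0, 0, 5 and 7 reads. Cdx2 had 8 reads, all in serum/-LIF 1.

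In the retinoic acid pathway 13 of 19 genes were tested and none was called in limma (3, Dhrs3, Rara and Rarg, had an unadjusted p under 0.05). Dhrs3, which reduces retinaldehyde and is itself induced by retinoic acid, had 50.8, 72.5, 0 and 15.8 normalized counts (log2 difference -3.91, limma adjusted p = 0.389). Aldh1a2, the main retinoic acid synthesis enzyme of the embryo, had 0, 20.7, 23.1 and 20.7 (log2 difference 2.29, limma adjusted p = 0.740). Of the regulators of hindbrain and trunk, 8 of 11 were tested and none called in limma (3, Fgf8, Gbx2 and Wnt3, had an unadjusted p under 0.05). Gbx2, a gene of the anterior hindbrain that is also active in naive mESCs, had 32.1 and 52.8 against 234 and 155 normalized counts (log2 difference 2.18, limma adjusted p = 0.172).

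The chromatin regulators of the clusters were abundant. All 22 Polycomb genes were tested, with sums of 21282 and 19966 normalized counts in serum/-LIF and 31803 and 25028 with Royalactin. In limma none was called, 17 of the 22 lay above 0 and the median log2 difference was 0.31, against -0.01 and 49.4% above 0 over all tested genes. An unadjusted p under 0.05 was found for 2, both accessory subunits of the complex that methylates H3K27 and both named after their values were seen: Jarid2 (log2 difference 1.27, limma adjusted p = 0.101) and Mtf2 (0.77, limma adjusted p = 0.428). Jarid2 had means of 2219 and 5332 normalized counts in serum/-LIF and with Royalactin, and Mtf2 had 3059 and 5119. These 2 genes made up much of the difference between the Polycomb sums. The lowest log2 difference among the 22 was -0.57 for Bmi1 (limma adjusted p = 0.820), a core subunit of the complex that ubiquitylates histone H2A. None of the 11 Trithorax and H3K27 demethylase genes, which oppose Polycomb, was called in limma (2, Ash2l and Rbbp5, had an unadjusted p under 0.05), and their median was 0.00. Among them Ash2l, a subunit of the H3K4 methyltransferases, had 0.74 (limma adjusted p = 0.409) and Kdm6b, an H3K27 demethylase, -0.89 (limma adjusted p = 0.669). Of 9 homeobox genes of the head, only Otx2 was tested, with 350, 616, 361 and 292 normalized counts (log2 difference -0.52, limma adjusted p = 0.736). Otx2 alone thus exceeded the sum of all 39 Hox genes in every library. Most other genes of this list had the opposite direction at few reads. Of the 9, 7 were seen only with Royalactin and 1 only in serum/-LIF, against 5.48% and 3.56% of all table genes. Hesx1 had 0, 0, 13 and 25 reads and Gsc 0, 0, 12 and 29. Against a floor of 3 reads in each empty library, they were at least 4.26-fold and 4.50-fold higher with Royalactin. Neither was tested.

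Markers of cell types that such cultures could hold were read beside these values. Of the 10 pluripotency markers, 5 were higher with Royalactin in limma, namely Klf4 (log2 difference 3.88, adjusted p = 0.00787), Tfcp2l1, Esrrb, Zfp42 and Sox2 (1.52, adjusted p = 0.0368). Of 10 neural markers, 7 were tested and Nes, an intermediate filament of neural progenitors, was lower (-1.95, adjusted p = 0.0166). These 6 calls were lost without serum/-LIF 1, Royalactin 1 or Royalactin 2 and in limma without the variance trend, and 5 list genes were called without serum/-LIF 2. No mesoderm (3 of 10 tested), endoderm (6 of 10), trophoblast (3 of 10) or fibroblast marker (4 of 12) passed in limma, and 0, 1, 1 and 2 of them, in this order, had an unadjusted p under 0.05. The fibroblast markers summed to 269 and 285 normalized counts in serum/-LIF and 162 and 103 with Royalactin, but without Twist1 the groups overlapped (164 and 95.2 against 97.6 and 70.2), and Pdgfrb, Fap and Postn had no read. Among them Dcn had 37.5 and 31.1 normalized counts against 0 and 0 (limma adjusted p = 0.422), and Pdgfra 52.2, 0, 42.2 and 32.4 (limma adjusted p = 0.709). Neural marker sums were 2564 and 2077 against 1593 and 1682, and without Nes they turned to 1074 and 978 against 1259 and 1356. The median log2 difference of the 7 tested neural markers was 0.20, with 4 above 0. Mesoderm markers summed to 151, 109, 169 and 122, endoderm markers to 2510, 1296, 1729 and 1308, and trophoblast markers to 86.9, 152, 271 and 390. The part of such cells in the Hox counts was not tested.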

How the data were processed

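RNA was depleted of ribosomal RNA and sequenced as single reads of 75 bases, with 2 libraries per group. Alignment was with Tophat to mm9 and counting per gene with HTSeq; the authors then scaled the counts by DESeq size factors. The deposited table holds these normalized counts (a signal, not raw counts). Annotation, strand setting, the handling of reads in shared exon bases and any removal of duplicate reads are not given in the sources used here. Every value was a whole multiple of 1 step per library (tolerance 0.01 reads), which gave the reads printed. Genes with a mean of at least 10 over the 4 libraries (12993) were tested with limma 3.58.1 in R 4.3.3 on log2(normalized count + 1), with a variance trend and two-sided Benjamini-Hochberg adjusted p-values over all of them, a scale that understates changes of low genes. The analysis was tested on simulated data. Exon lengths (90.8% of table genes) and promoters came from GENCODE M1 on mm9, and minimap2 matched 75-base windows, every 25 bases, to the genome.

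Members passing the filter were named; values in every library were given for the 3 members per cluster with the highest level per kb, those past the study's thresholds, and those at least 2-fold apart without overlap. Of 13 other gene lists (149 symbols), called members and extremes were named. The members and lists were chosen with earlier results of these data known. Alternatives were pseudocounts, filters, scalings, a replicate block, no variance trend and leaving out each library. The ATAC-seq samples were not analysed here. Some genes are counted but not reported here by name.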

Additional observations from a re-analysis of the deposited data

How the results depend on the processing

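No Hox gene was called by limma (adjusted p under 0.05) under the 13 alternatives that left a member to test, and as reported 1 of the 4 tested had an unadjusted p under 0.05; with a mean of at least 50, none was tested. The calls over all genes, 64 as reported, were 32 with a pseudocount of 0.1, 34 with no filter, 99 with a mean of at least 50, 0 without the variance trend, and 0 to 60 with a library left out. The calls among the other lists, 6 as reported, were 0 without the variance trend and 0 to 5 with a library left out. A library left out leaves a single one in its group, assumed to vary like the others. The Hox genes that met the study's thresholds, 1 as reported, were 3 with no filter, 2 with a mean of at least 1, and 0 to 1 with a library left out (0 without serum/-LIF 2 or without Royalactin 1). The median log2 difference of the tested members ran from -2.95 to 0.45 with a library left out, the highest value without Royalactin 2. With a library left out, log2 differences ran from -3.60 to 0.69 for Hoxb13 and from -2.30 to 0.25 for Hoxb2 (highest without Royalactin 1), and from -5.76 to -2.45 for Hoxd13. The log2 ratio of summed levels, with a library left out, ran from -1.15 to -0.49 for all members, from -1.16 to 1.93 for Hoxa, from -0.69 to -0.53 for Hoxb, from -3.75 to 0.95 for Hoxc and from -2.56 to -1.56 for Hoxd. Without the member with the highest mean it was -0.41 for all members, -0.34 for Hoxb and -0.10 for Hoxd. Scaling by upper quartile, trimmed mean or the total without Rn45s turned none of these sums. The planned count-based fits were not run, since 1 read in Royalactin 1 was worth 1.01 normalized counts, too close to 1 for the recovered reads to be checked. Whether the replicate numbers pair the samples was not settled. The correlation of deviations across genes was 0.0851 (2 pairs), a value over all tested genes that cannot exclude a pairing in some of them. Rn45s took 46.6% and 38.4% of the reads in the libraries numbered 1, and 21.6% and 9.08% in those numbered 2 (serum/-LIF first). With the replicate block, 391 genes, 13 list genes and 0 Hox genes were called (Hoxd13 limma adjusted p = 0.167). The cause of these changes was not tested. In sums without 1 member chosen after seeing the data, the log2 ratio of groups 9 to 13 was -0.75 without Hoxd13, the log2 ratio of neural markers reversed to 0.35 without Nes, and that of fibroblast markers was -0.63 without Twist1. Depth limits the results, as only 4 of 39 members passed the filter, and a gene at 0 could have been present at up to 3 reads.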
